A study of Mus musculus with 3 samples.

Results

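Genes that are used as markers of amygdala nuclei were examined in RNA captured from tagged ribosomes of the mouse cortex-amygdala transition zone, the tissue where the ventral cortex borders the amygdala. The 10 genes were taken by symbol from a list that was drawn up with earlier results of these data known. All 10 were found among the 32532 genes of the count files. They form a set of 6 basolateral or cortical genes (Lmo3, Rspo2, Otof, Slc30a3, Cyp26b1 and Mpped1) and a set of 4 central or medial genes (Lhx9, Dlk1, Prkcd and Otp). There was 1 group of 3 immunopurified libraries, called replicates 1, 2 and 3, from 3 adult control mice of the Lypd1-EGFP/Rpl10a line OI82, which received no treatment. In this line EGFP is fused to ribosomal protein L10a, and the names of the line give Lypd1 as the gene whose regulatory DNA drives it. Antibodies to EGFP pulled down the polysomes of cells that make the fusion protein. The labels give no strain, sex or exact age, and beside the number of mice nothing states that each library came from 1 animal. Neither unpurified tissue nor a wild-type control was analysed here, so every value is a level in captured RNA and no enrichment over the tissue can be given. In such bulk RNA, fewer cells of a type and less RNA per cell cannot be told apart.

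The amygdala is a group of nuclei of mixed origin. Its basolateral and cortical nuclei hold mostly glutamatergic neurons that resemble those of the cortex, while the central nucleus holds GABAergic neurons that resemble those of the striatum. The medial nucleus holds both kinds, some of them derived from the hypothalamic region. None of the 10 genes is confined to the amygdala: Slc30a3, Otof, Mpped1 and Lmo3 are also expressed in the cortex, Prkcd is abundant in thalamic relay neurons, and Otp marks several hypothalamic groups. Their levels here therefore describe which marker transcripts the captured RNA carried, not where the cells lay.

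Levels are in CPM, the counts of a gene per 1000000 counts assigned to genes in that library. Different genes are compared per length, as CPM per kb of annotated exons, and differences between genes are on the log2(CPM per kb + 0.1) scale. Values with ± are the mean and SD over libraries (n = 3). The libraries held 18526251, 24690301 and 8668527 gene counts, so that 3 counts, the amount that a count of 0 allows, correspond to 0.162, 0.122 and 0.346 CPM. Lypd1 itself measured 232, 601 and 272 CPM in replicates 1, 2 and 3. The capture carried glial and GABAergic transcripts beside those of pallial projection neurons. Summed levels of 10 lists of cell type markers, which hold 6 to 12 genes each, were highest in replicate 1 for 9 lists and in replicate 2 for the remaining list, that of pallial projection neurons. The highest library of a sum changed on leaving out 1 gene for 1 of these lists, microglia, whose sums without Cx3cr1 were 19.9, 19.8 and 25.4 CPM. Genes did not always follow the sum of their list. All 5 cholinergic genes with a count were highest in replicate 1. Of the 8 endothelial, mural and fibroblast genes, 4 were highest in replicate 1 and 4 in replicate 2. Of 11 hypothalamic genes with a count, 5 were highest in replicate 1, 1 in replicate 2 and 5 in replicate 3. The share of all genes that were highest in each library was not counted. Here and below, such counts are therefore a description only. Xist, the RNA of the inactive X chromosome of females, measured 47.8, 1.26 and 78.4 CPM, and the Y-linked gene Ddx3y 22.6, 31.3 and 18.6 CPM, so replicates 1 and 3 carried transcripts of both kinds. Whether each library came from 1 animal is thus not known, and an SD over libraries may not be an SD over mice. The part of sex, of pooling or of the dissection in the values below was not tested.

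Of the 10 genes, 8 were detected, that is, they reached 1 CPM in all 3 libraries. Among all listed genes the share was 39.3%. It is given as a description only, since the 10 genes were chosen with earlier results of these data known. The genes that fell short were Rspo2 and Otp. Per kb the levels ran from 84.6 ± 53.9 for Lmo3 to 0.0848 ± 0.135 CPM per kb for Otp, while the median of the detected genes was 5.98 CPM per kb. Lmo3 and Slc30a3 ranked first and second in 3 of 3 libraries, and Rspo2 and Otp ranked 9th and 10th in 3 of 3. The middle of the order was less settled. Otof, Mpped1 and Dlk1 followed one another with differences smaller than their spread, as did Lhx9, Prkcd and Cyp26b1. Neighbours whose difference had 1 sign in 3 of 3 libraries and exceeded its SD were Lmo3 over Slc30a3 (1.32 ± 0.94), Slc30a3 over Otof (1.91 ± 0.43), Dlk1 over Lhx9 (1.29 ± 1.13), Cyp26b1 over Rspo2 (1.65 ± 0.18) and Rspo2 over Otp (1.25 ± 0.42). The last of these rests on 0, 1 and 6 counts of Otp.

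**Figure D1:**
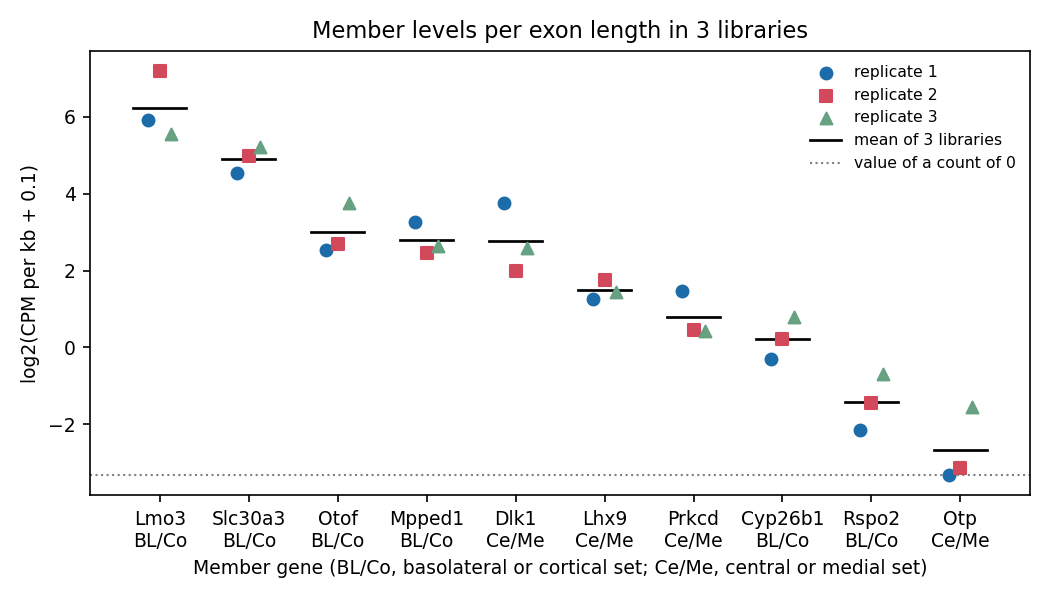
Levels of the 10 genes in log2(CPM per kb + 0.1), 1 point per library with the mean as a bar, in descending order of the mean. Lmo3 and Slc30a3 lie above all others in each library, and the libraries are in a different order for Lmo3, Dlk1 and Otof.

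Lmo3 stood highest. Lmo3 (ENSMUSG00000030226.12, chromosome 6, 138362918 to 138581968, minus strand, GRCm38) encodes a LIM-only protein, a transcriptional cofactor that binds other factors and has no DNA-binding domain of its own. Replicate 1 had 312 CPM, replicate 2 had 751 CPM and replicate 3 had 239 CPM. Replicate 2 thus stood 3.14-fold above replicate 3, and the other two lay close together. Per kb its lowest library, at 46.6 CPM per kb, was above the highest of Slc30a3, at 36.9. On average Lmo3 lay at percentile 97.2 of the 11741 detected genes with a known exon length. It exceeded Lypd1 per kb in 3 of 3 libraries by 0.64 ± 0.33 on the log2 scale. It exceeded Slc17a7, the main vesicular glutamate transporter of cortical neurons, by 0.86 ± 0.77, with 0.068 in replicate 3.

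The genes of LIM-domain partners give Lmo3 a frame. Of 12 LIM-only, LIM-homeodomain and adaptor genes 8 were detected, and Lmo3 was first in 3 of 3 libraries. Next came the homeodomain factor Lhx2 at 19.1 ± 6.58 CPM per kb and Lmo4, a LIM-only gene of cortical and amygdalar neurons, at 13.7 ± 2.02. Lmo3 exceeded Lhx2 by 2.02 ± 0.42 and Lmo4 by 2.45 ± 0.78 on the log2 scale, both in 3 of 3 libraries. The adaptors through which LIM proteins assemble, Ldb2 and Ldb1, measured 12.9 ± 1.60 and 8.35 ± 1.61 CPM per kb. Lmo2 measured 4.70, 18.0 and 14.1 CPM, and Lmo1 0.270, 0.324 and 2.08 CPM.

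Slc30a3 was the next most abundant member. Slc30a3 (ENSMUSG00000029151.14, chromosome 5, 31086106 to 31108237, minus strand) encodes ZnT3, which loads zinc into the synaptic vesicles of telencephalic glutamatergic neurons. It measured 65.1, 89.5 and 105 CPM in replicates 1, 2 and 3, a range of 1.61-fold. Among the 10 zinc transporters of its family it was first per kb in 3 of 3 libraries, at 30.5 ± 7.04 CPM per kb. The next was Slc30a10, a manganese and zinc exporter, at 11.3 ± 1.23, which Slc30a3 exceeded by 1.40 ± 0.45 on the log2 scale. Slc30a9 measured 8.34 ± 1.80 CPM per kb, and Slc30a8, the transporter of pancreatic beta cells, had 0 counts in each library. Slc30a3 followed Slc17a7 closely: the difference, Slc30a3 minus Slc17a7, was −0.45 ± 0.17 (log2) and had that sign in all 3 libraries.

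Otof and Mpped1 lay in the middle of the order and were highest in different libraries. Otof (ENSMUSG00000062372.13, chromosome 5, 30367062 to 30461932, minus strand) encodes otoferlin, the calcium sensor of vesicle release in inner hair cells, and is known in the brain as a marker of some superficial cortical neurons. It measured 45.1, 50.1 and 107 CPM, so that replicate 3 stood apart from the other two. It was the one ferlin gene detected of the 5 measured. Myof and Dysf, ferlins of membrane repair, averaged 0.358 ± 0.278 and 0.225 ± 0.255 CPM per kb against 8.52 ± 4.34 for Otof, while Fer1l4 and Fer1l5 had 0 counts. Otof exceeded Myof by 4.39 ± 0.98 on the log2 scale.

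Mpped1 (ENSMUSG00000041708.12, chromosome 15, 83779467 to 83858494, plus strand), which encodes a metallophosphoesterase domain protein, measured 41.1, 23.0 and 26.3 CPM. Here replicate 1 was the highest and the other two lay close together. Its paralogue Mpped2 measured 15.9, 53.9 and 23.6 CPM, so that the pair changed order between libraries. Mpped1 minus Mpped2 was 1.02 in replicate 1, −1.54 in replicate 2 and −0.17 in replicate 3 on the log2 scale.

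Cyp26b1 and Rspo2 were the scarce members of the basolateral or cortical set. Cyp26b1 (ENSMUSG00000063415.12, chromosome 6, 84571414 to 84593908, minus strand) encodes an enzyme that breaks down retinoic acid. It measured 3.78, 5.67 and 8.65 CPM, from 70, 140 and 75 counts. Exact Poisson 95% intervals, which cover counting error only, were 2.95 to 4.77, 4.77 to 6.69 and 6.81 to 10.8 CPM, so replicates 1 and 3 differed beyond counting error. Of the 17 genes of retinoic acid metabolism and response 10 were detected, and Cyp26b1 ranked 11th by its mean. The synthesizing enzyme Aldh1a2 measured 16.2, 10.9 and 14.1 CPM and exceeded Cyp26b1 per kb in 3 of 3 libraries (Cyp26b1 minus Aldh1a2, −2.38 ± 0.69, log2). Aldh1a1, another such enzyme, measured 74.8, 24.3 and 13.5 CPM. The other two breakdown enzymes were scarce: Cyp26a1 measured 0.0540, 0.932 and 0.923 CPM, and Cyp26c1 had 0 counts. Among receptors, Rxrb was highest at 4.03 ± 1.28 CPM per kb, followed by Rxra at 3.64 ± 1.67, Rara at 2.92 ± 0.698 and Rarb at 2.48 ± 1.20.

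Rspo2 (ENSMUSG00000051920.7, chromosome 15, 43020794 to 43170826, minus strand) encodes an R-spondin, a secreted protein that strengthens Wnt signalling, and marks a group of basal amygdala projection neurons. It was counted 12, 34 and 23 times, which gives 0.648, 1.38 and 2.65 CPM in replicates 1, 2 and 3. The Poisson intervals of 0.335 to 1.13 and 1.68 to 3.98 CPM for replicates 1 and 3 did not overlap. Other R-spondins were more abundant per kb. Rspo1 measured 3.71 ± 0.658 CPM per kb and Rspo3 3.06 ± 1.78, against 0.305 ± 0.199 for Rspo2, and both exceeded Rspo2 in 3 of 3 libraries. Of the receptors, Lgr4 measured 5.84 ± 0.450 CPM per kb, and Lgr5 and Lgr6 0.330 ± 0.0763 and 0.220 ± 0.0560. The ubiquitin ligase Znrf3, whose action R-spondins block, measured 5.20 ± 1.61 and the Wnt target Axin2 3.93 ± 1.02 CPM per kb. In all, 8 of the 12 genes of this pathway were detected.

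**Figure D2:**
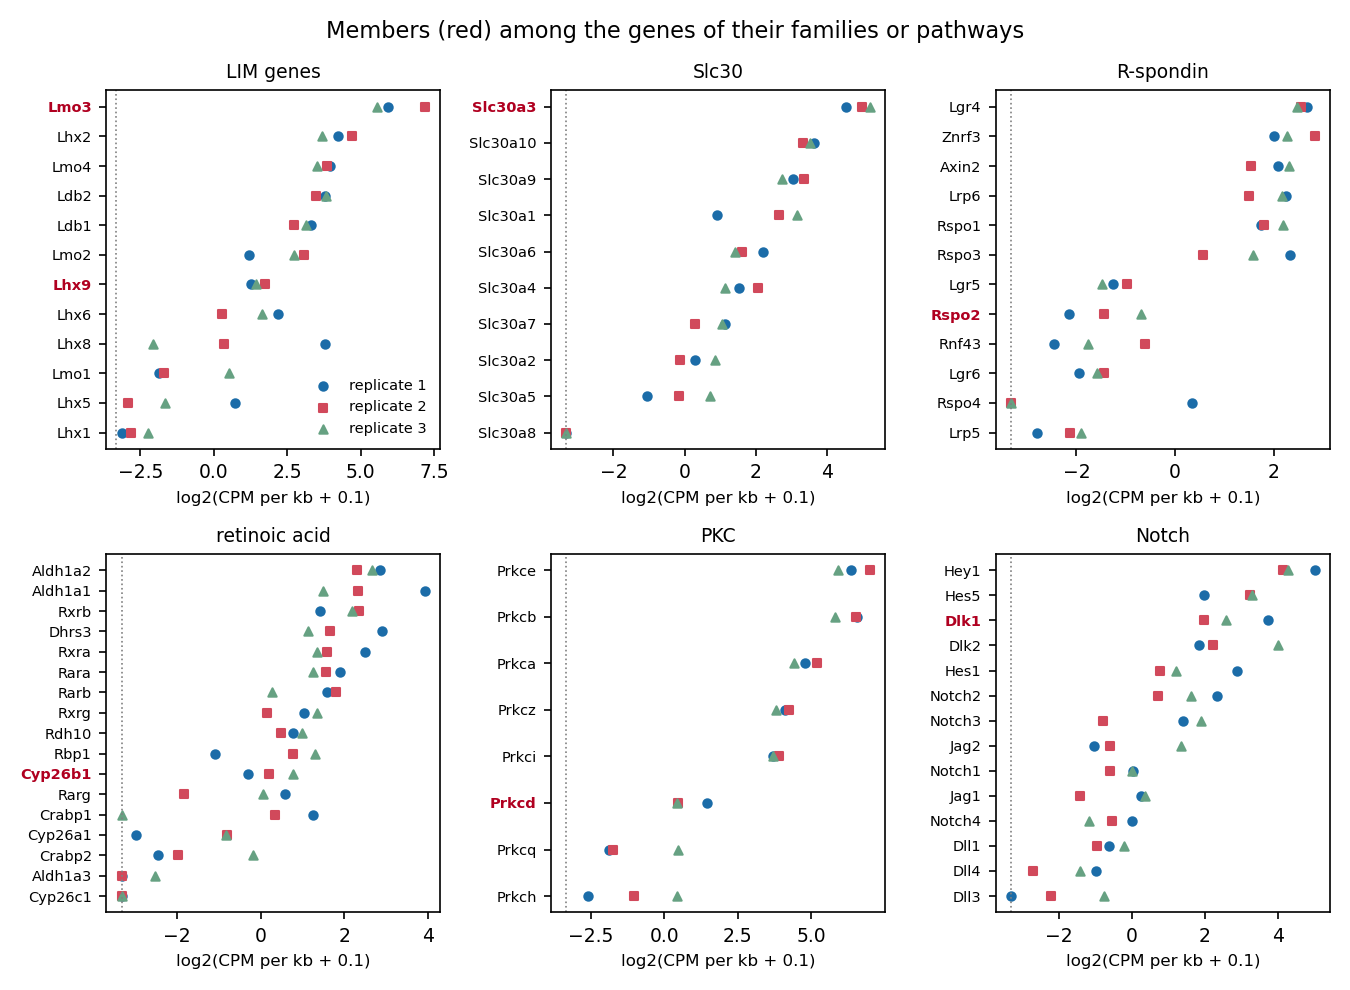
Levels in log2(CPM per kb + 0.1) of the measured genes of 6 families or pathways, 1 point per library, with the members in red and a dotted line at the value of a count of 0. Lmo3 and Slc30a3 lead their families in each library, whereas Rspo2, Cyp26b1 and Prkcd lie in the lower part of theirs.

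In the central or medial set Dlk1 was the most abundant. Dlk1 (ENSMUSG00000040856.17, chromosome 12, 109452823 to 109463336, plus strand) encodes a membrane protein of the Notch ligand type and is imprinted, with expression from the paternal copy. Replicates 1, 2 and 3 had 75.5, 21.7 and 33.3 CPM, so that replicate 1 stood 3.47-fold above replicate 2. Of 14 genes of Notch signalling 12 were detected, and Dlk1 ranked 2nd in replicate 1 and 4th in replicates 2 and 3. By its mean log2 level Dlk1 was the third, at 7.70 ± 5.002 CPM per kb. Hey1 and Hes5, transcriptional targets of Notch, came before it at 23.1 ± 8.02 and 7.65 ± 3.34 CPM per kb. Its paralogue Dlk2 measured 7.29, 9.64 and 33.8 CPM and was highest in replicate 3. Meg3, a nuclear RNA that is expressed from the other parental copy of the same imprinted domain, measured 22092, 13930.4 and 46742 CPM. Rian and Rtl1 of that domain measured 359, 248 and 706 CPM and 58.5, 9.27 and 85.3 CPM. These 3 genes were highest in replicate 3, where Dlk1 was not.

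The sequences upstream of Lmo3 and Dlk1 are shown because these genes led their sets and had their highest levels in different libraries. Each stretch is the 250 bases before the start of transcription in RefSeq (GRCm38.p6), 5′ to 3′ on the strand of the gene, at chr6:138581969-138582218 (minus strand) for Lmo3 and chr12:109452573-109452822 (plus strand) for Dlk1. Capitals mark matches, on either strand, to 6 motifs. These were the TATA box, searched as TATAAA, the CCAAT box, searched as CCAAT, and the GC box, searched as GGGCGG. The others were the E-box, searched as CANNTG, which reads alike on both strands, the retinoid receptor half-site, searched as AGGTCA, and the cyclic AMP response element, searched as TGACGTCA.

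Lmo3: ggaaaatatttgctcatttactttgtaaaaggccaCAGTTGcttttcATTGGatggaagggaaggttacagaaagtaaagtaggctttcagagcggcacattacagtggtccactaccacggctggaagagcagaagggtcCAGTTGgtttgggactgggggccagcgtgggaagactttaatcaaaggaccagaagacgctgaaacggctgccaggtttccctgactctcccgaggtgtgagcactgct

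Dlk1: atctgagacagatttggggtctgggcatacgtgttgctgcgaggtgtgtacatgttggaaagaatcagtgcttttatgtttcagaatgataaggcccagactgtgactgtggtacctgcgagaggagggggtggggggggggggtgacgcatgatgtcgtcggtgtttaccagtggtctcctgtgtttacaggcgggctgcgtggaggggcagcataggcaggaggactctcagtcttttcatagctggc

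Lmo3 held 2 E-boxes, which begin 215 and 109 bases before the start, and 1 CCAAT box on the other strand, 199 to 203 bases before it. None of these matches overlapped another, and none of the motifs was found in the 250 bases of Dlk1. Among 32851 RefSeq promoter windows of this length 66.2% held an E-box, 33.8% a CCAAT box, 32.7% a GC box, 14.02% a retinoid half-site, 12.4% a TATA box and 1.55% a cyclic AMP response element. The ratio of observed to expected CpG was 0.40 for Lmo3 and 0.50 for Dlk1, near the median of 0.374 over all windows. RefSeq entries were matched for 8 of the 10 genes.

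Lhx9 varied least of all members. Lhx9 (ENSMUSG00000019230.14, chromosome 1, 138825186 to 138848577, minus strand) encodes a LIM-homeodomain transcription factor that is active in the developing amygdala. It measured 21.9, 30.9 and 24.8 CPM, a range of 1.41-fold. Among the LIM genes it ranked 7th by its mean, at 2.72 ± 0.483 CPM per kb, and was lower than Lhx2 in 3 of 3 libraries (Lhx9 minus Lhx2, −2.72 ± 0.41, log2). Lhx6, a factor of GABAergic neurons from the medial ganglionic eminence that also marks medial amygdala cells, measured 21.4, 5.35 and 14.5 CPM.

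Prkcd (ENSMUSG00000021948.17, chromosome 14, 30595354 to 30626210, minus strand) encodes protein kinase C delta, the usual marker of GABAergic neurons of the lateral central amygdala. Its level was 14.7 CPM in replicate 1, against 7.05 and 6.92 CPM in replicates 2 and 3. Among the 8 protein kinase C genes analysed here it ranked 6th by its mean, at 1.73 ± 0.807 CPM per kb. Prkce and Prkcb, which are abundant in forebrain neurons, measured 89.1 ± 33.7 and 79.8 ± 20.9 CPM per kb. Against Prkci, an atypical isoform gene, Prkcd was lower in 3 of 3 libraries (Prkcd minus Prkci, −2.98 ± 0.66, log2). Of the 10 thalamic markers 7 were detected, with summed levels of 444, 271 and 286 CPM, highest in replicate 1 as Prkcd was. Of the 9 with any count, 6 were highest in replicate 1, among them Rora at 191, 120 and 111 CPM and Slc17a6 at 127, 66.5 and 76.8 CPM. The other 3, Prkch, Ramp3 and Ntng1, were highest in replicate 3, and the thalamic factor Gbx2 had 0 counts in each library. The part of thalamic RNA in the Prkcd level was not tested. Per kb Prkcd was far lower than Gad2, an enzyme of GABA synthesis (Prkcd minus Gad2, −5.10 ± 0.21, log2), and Dlk1 minus Gad2 was −3.11 ± 0.61.

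Otp (ENSMUSG00000021685.11, chromosome 13, 94875602 to 94885130, plus strand) encodes a homeodomain factor of hypothalamic neuroendocrine cells and of part of the medial amygdala. It was counted 0, 1 and 6 times. The level was 0.692 CPM in replicate 3, with a Poisson interval of 0.254 to 1.51, and the interval for replicate 2 reached up to 0.226 CPM. By the limit of 3 counts, which is another measure than the Poisson intervals, the 0 counts of replicate 1 allow a level of up to 0.162 CPM. Hypothalamic markers were scarce as well. Of 12 such genes 2 were detected, Sim1 and Pomc, and the summed level of all 12 was 31.1, 9.07 and 22.0 CPM. Pmch had 0 counts in each library, and Hcrt had counts in replicate 3 alone.

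Set against each other, the basolateral or cortical genes lay above the central or medial ones. The median of the first set exceeded that of the second by 1.54 in replicate 1, 1.47 in replicate 2 and 2.27 in replicate 3 on the log2(CPM per kb + 0.1) scale. The mean difference was 1.76 ± 0.44, positive in 3 of 3 libraries and larger than its SD. No p is given for this difference, since the genes were chosen with earlier results of these data known. When each gene was divided by the length of its longest transcript in place of all its exons the difference was 1.15 ± 0.39, again positive in 3 of 3. Without Otp, the one member with a mean under 1 CPM, it was 1.34 ± 0.48.

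The size of the summed levels turned on 1 gene in each set. Summed levels were 99.9, 191 and 105 CPM per kb for the basolateral or cortical set and 18.3, 8.38 and 9.99 CPM per kb for the central or medial set. The ratio of the sums was thus 5.46 in replicate 1, 22.8 in replicate 2 and 10.5 in replicate 3. Lmo3 made up 60.9%, 76.6% and 44.3% of the first sum, and Dlk1 72.9%, 45.9% and 59.0% of the second. Without Lmo3 the ratio was 2.13, 5.32 and 5.87. Without Dlk1 the sum of the central or medial set was 4.96, 4.54 and 4.10 CPM per kb, which is nearly level across the libraries.

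Gene by gene, the sets overlapped. Of the 24 pairs of a basolateral or cortical gene with a central or medial gene, the first was higher per kb in every library in 16, lower in every library in 5 and mixed in 3. The 5 exceptions were Rspo2 against Lhx9, Dlk1 and Prkcd and Cyp26b1 against Lhx9 and Dlk1. Lmo3 and Slc30a3 were above each of the 4 central or medial genes in 3 of 3 libraries. Dlk1 was the hardest to place: it lay under 2 genes of the other set, above 2 and was mixed with Otof and Mpped1. The mixed pairs were set by replicate 1 for Dlk1, where it exceeded both Otof and Mpped1.

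**Figure D3:**
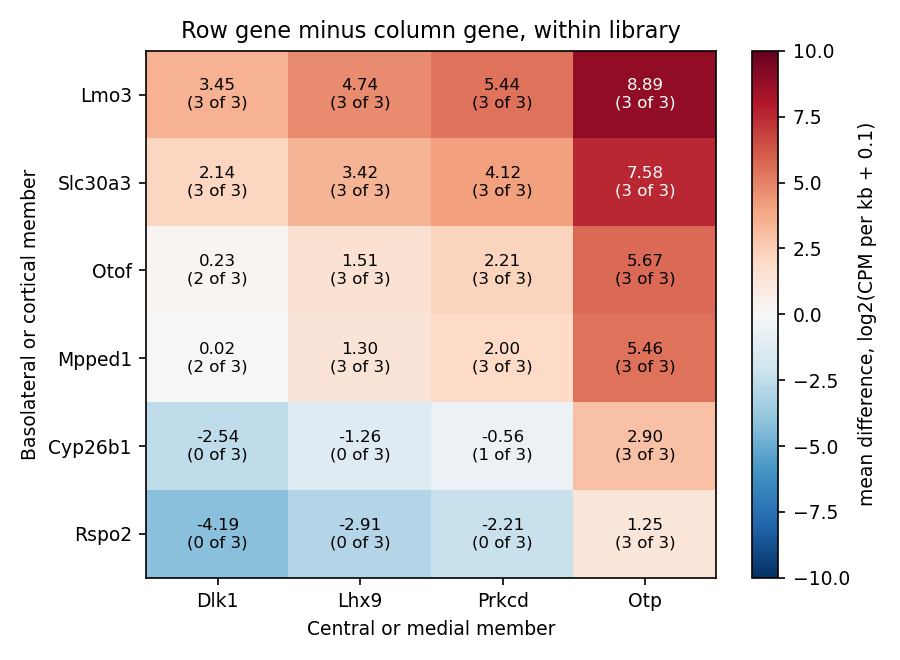
Mean within-library difference of each basolateral or cortical gene (rows) minus each central or medial gene (columns) in log2(CPM per kb + 0.1), with the number of libraries in which it was positive. Rows for Lmo3 and Slc30a3 are positive throughout, rows for Cyp26b1 and Rspo2 are negative except against Otp, and the size of the Otp column depends on the added 0.1 because Otp was near 0.

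The members were not all highest in the same library, nor were the genes of either set. No member passed the test of variation given below, so these orders of the libraries are a description only. In the basolateral or cortical set, Slc30a3, Otof, Cyp26b1 and Rspo2 were lowest in replicate 1 and highest in replicate 3. Mpped1 of the same set, and Dlk1 and Prkcd of the other, were highest in replicate 1. Lmo3 and Lhx9 were highest in replicate 2. Beside these, the summed GABAergic markers measured 1082, 572 and 794 CPM, the striatal ones 504, 348 and 379 CPM and the cholinergic ones 50.2, 1.90 and 2.77 CPM in replicates 1, 2 and 3. The pallial projection neuron markers measured 575, 962 and 762 CPM. Nuclear RNAs differed too, with Malat1 at 34476, 14399.7 and 82536.5 CPM. The part of any of these in the pattern of the members was not tested.

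**Figure D4:**
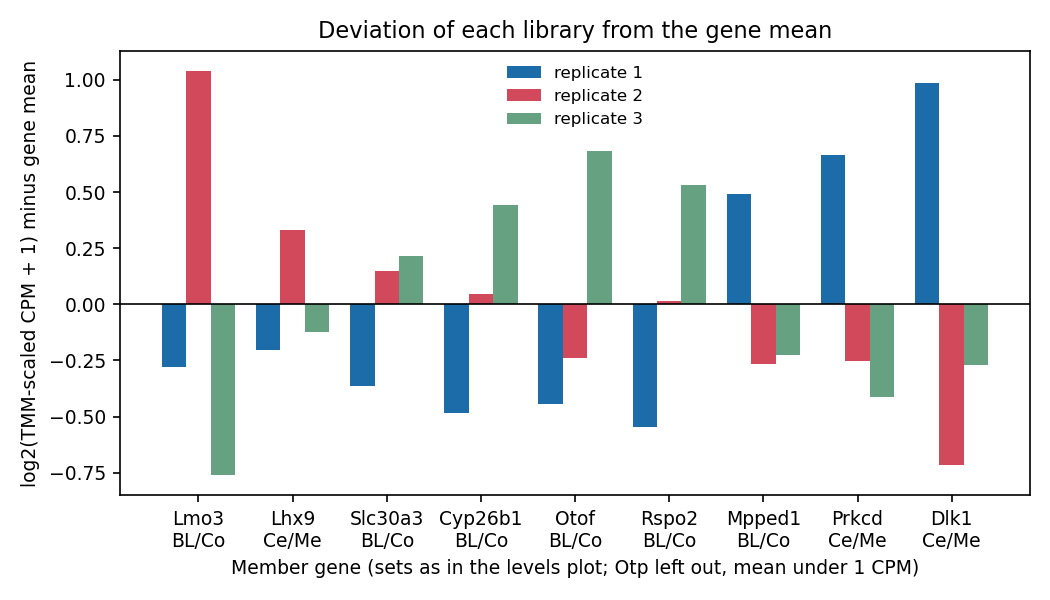
Deviation of each library from the mean of the gene, in log2(TMM-scaled CPM + 1), for the 9 members that averaged at least 1 CPM. Lmo3 is highest in replicate 2, Dlk1, Prkcd and Mpped1 in replicate 1, and Slc30a3, Cyp26b1, Otof and Rspo2 in replicate 3.

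A fit across all genes asked which of them differed between the libraries by more than genes of like abundance did. It used edgeR's negative binomial model with 1 common level, and the chi-square goodness of fit of each gene as the test. Of the 15336 genes that averaged at least 1 CPM, 32 passed an adjusted p (Benjamini-Hochberg) of 0.05, which is 0.209%. None of the 9 members tested was among them, that is 0 of 9, and Otp was too scarce to be tested. At an unadjusted chi-square p under 0.05 there was 1 member, Lmo3 (p = 0.0143, adjusted p = 0.441 from edgeR), against 1200 of all genes, or 7.82%. Dlk1 had an adjusted p of 0.659 and Otof of 0.909, and those of the remaining members lay between 0.993 and 0.998. No member was thus called as ranging more widely than other genes at its abundance, but the test could scarcely decide this. It recovered only 45.0% of genes raised 8-fold in 1 of 3 simulated libraries. The tested members ranged from 1.41-fold (Lhx9) to 4.10-fold (Rspo2) between libraries, and changes of that size were not simulated. No other tool was run as a test.

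The closest profiles were found for each detected member and Rspo2 among the 11750 genes that averaged at least 5 CPM, by the Euclidean distance of centred log2 values over 3 libraries. With 3 libraries many genes come close by number alone. For Lmo3 these were AK018584, Mef2c and Mrpl27 (distances 0.032, 0.068 and 0.069), and 33 genes lay within 0.2. For Dlk1 they were Irak2, Cln6 and Ckap4, with 63 genes within 0.2. Prkcd lay nearest to Calb2, Chn2 and Phtf2, with 206 genes, and Mpped1 to Aloxe3, Mkx and Zkscan16, with 338. Lhx9 had 574 such genes, led by Sphk2, Mamld1 and AK049852, and Slc30a3 had 391, among them Fam184b and Chd1. Otof was nearest to Tpcn1, Nxt1 and Taf5 (166 genes), Cyp26b1 to Ntrk3, Cramp1l and Klhl3 (224 genes) and Rspo2 to Hmgxb4, Zfp711 and C230052I12Rik (185 genes).

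Other markers of the same nuclei were read from 3 further lists. All 12 further genes of the basolateral or cortical amygdala were detected. Their highest levels per kb were those of the peptide gene Cck at 114 ± 12.2, the transcription factor Mef2c at 39.2 ± 23.5 and Nr2f2, a nuclear receptor, at 18.3 ± 3.18 CPM per kb. Mef2c measured 458, 1038 and 351 CPM. Over the list, 4 genes were highest in replicate 1, 4 in replicate 2 and 4 in replicate 3. Fezf2, a factor of basolateral and deep cortical projection neurons, measured 1.295, 18.6 and 11.1 CPM. The median gene of this list had 5.42 CPM per kb, against 7.77 for the 6 members of that set.

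Of 12 further central amygdala genes 9 were detected, with a median gene at 4.83 CPM per kb. This was above the 2.22 of the 4 central or medial members and near the 5.42 of the further basolateral or cortical list. The gap between the medians of the member sets, 7.77 against 2.22, was much wider than between the further basolateral or cortical and central lists. The further medial list lay lower, at 2.47 CPM per kb, near the 2.22 of the central or medial members. In the central list the peptide genes Sst and Penk and the neurokinin B gene Tac2 led at 84.0 ± 21.5, 23.5 ± 8.04 and 15.3 ± 12.9 CPM per kb. Sst measured 63.1, 43.9 and 74.6 CPM and is also made by cortical interneurons. Crh, the corticotropin-releasing hormone gene, measured 0, 0.324 and 0.231 CPM, and Nts 9.72, 0.324 and 1.04 CPM. Drd2, the dopamine D2 receptor, measured 47.1, 2.67 and 15.5 CPM (adjusted p = 0.0996 in the same edgeR fit) and Isl1, a striatal and central amygdala factor, 12.1, 1.54 and 0.923 CPM. Of the 12 genes of the central list, 6 were highest in replicate 1, 3 in replicate 2 and 3 in replicate 3.

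Of 8 further medial amygdala genes 7 were detected, with a median gene at 2.47 CPM per kb, against 2.22 for the 4 members of the central or medial set. The sex steroid receptors Pgr and Esr1 measured 6.69 ± 2.37 and 3.81 ± 2.32 CPM per kb and the tachykinin gene Tac1 5.21 ± 3.28. Esr1 measured 42.1, 87.5 and 26.4 CPM. Of the 8 genes, 4 were highest in replicate 1, among them Tac1 and Pgr, 3 in replicate 2, as Esr1 was, and 1 in replicate 3. Cyp19a1, the aromatase gene, measured 0, 1.54 and 1.4997 CPM and was the one gene of this list not detected. None of the 32 genes on these 3 lists passed the test of variation between libraries (0 of 31 tested).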

How the data were processed

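RNA from anti-EGFP immunopurified polysomes was sequenced in 3 libraries of 1 group. The deposited files hold whole-number counts of reads per gene symbol, not normalized, 1 file per library. STAR 2.0.0e, HTSeq and the build mm10 are named in the submitters' processing notes; the annotation, the strand setting and the kit are not given in the sources used here. The 5 HTSeq summary classes stayed out of all totals: reads in no feature made up 25.6% to 45.3% of the entries and non-unique alignments 16.5% to 32.7%. Depth ranged from 8668527 to 24690301 counts; for a gene with no counts the upper limit given is 3 counts.

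CPM used all gene counts as the total. Exon lengths (union over transcripts) and positions came from GENCODE M21 on GRCm38, the assembly named mm10, matched by symbol for 88.8% of the genes that averaged at least 1 CPM and for each list gene. By this annotation no exon base of a member is shared with another gene. Variation between libraries was fitted with edgeR 4.0.16 in R 4.3.3 (TMM, intercept only, trended dispersion, goodness-of-fit chi-square on 2 degrees of freedom, Benjamini-Hochberg over 15336 genes). On simulated data with 200 genes raised in 1 library, the test recovered 45.0% of those raised 8-fold and 93.7% of those raised 64-fold, and 11.1% of its calls were false. Other steps used Python 3.11.15, pandas 2.3.3, numpy 2.4.6, SciPy 1.17.1 and matplotlib 3.10.9. DESeq2 1.42.0 gave size factors for an alternative.

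The members and lists were chosen with earlier results of these data known. Of 224 list entries 223 were matched; Fer1l6 was not. A few genes that the lists or the naming rule would include are not reported here. The named genes are the 10 members, Lypd1, Rpl10a, the 3 highest genes per kb and any gene called varying of each list, all nuclear and sex-linked genes, and the 3 genes nearest to each member; other list genes were named after their values were seen, and not every gene the rule names is described. Rpl10a, the tagged ribosomal protein gene, measured 122, 186 and 114 CPM.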

Additional observations from a re-analysis of the deposited data

How the results depend on the processing

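The difference of the set medians, 1.76 with all exons, was 1.15 with the length of the longest transcript, as Lhx9 (9494 bases of exons, 4937 in the longest transcript) and Prkcd (5544 and 2851) gain most from the shorter length. It stayed positive in every library under the 14 alternatives and moved by less than 1 SD under the other 13, leaving out each replicate in turn included (1.504 to 1.90). Not all of these could have changed the sign. The difference is taken within each library, so leaving out a replicate reuses the same values, and TMM scaling hardly alters them (1.76). Keeping only members that averaged at least 1 CPM is the same setting as leaving out Otp (1.34). Leaving out Lmo3, Otp or Lmo3 with Dlk1, and placing Lhx9 in the other set, were alternatives chosen after seeing the data (1.34 to 1.82). The number of detected members was 8, and 9 at a threshold of 0.5 CPM or without replicate 1, when Rspo2 passed. No member was called varying under any of the 8 alternatives. All genes called numbered 32, but 780 with a common dispersion, 8 without replicate 1 and 5 without replicate 2. Without replicate 2 the unadjusted p of Lmo3 was 0.454, and without replicate 3 that of Dlk1 was 0.0257. Scaling by DESeq2 size factors shifted replicate 3 by −0.11 on the log2 scale relative to library totals and changed no member's call. No paired analysis was possible because there is 1 group. Otp and Rspo2 rest on 0 to 34 counts a library.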

Other observations

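Lhx8, a LIM-homeodomain factor of basal forebrain cholinergic neurons, was the one gene of the LIM list that passed the edgeR goodness-of-fit test across all genes. Its levels were 34.9, 2.96 and 0.346 CPM in replicates 1, 2 and 3 (adjusted p = 0.00455). Chat, the enzyme that makes acetylcholine, passed as well, with 28.6, 0.608 and 1.62 CPM (adjusted p = 0.0352). Both genes were high in the library in which Dlk1, Prkcd and Mpped1 were highest, and none of these 3 members passed the test. Xist passed too (adjusted p = 0.00018). Lhx5, another gene of the LIM list, measured 4.16, 0.0810 and 0.577 CPM and did not pass (adjusted p = 0.803).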
